A study of Mus musculus with 34 samples.

Results

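Day 7 of a differentiation course of mouse embryonic stem cells was compared with day 4 of the same course, the interval in which the cells lost the genes of pluripotency. The comparison took all libraries whose column names begin with the day 7 label (n = 5) and all whose names begin with the day 4 label (n = 3), 8 of the 34 RNA sequencing libraries of the study. The cells were CBMS1, a female mouse embryonic stem cell line of background CBA/MsM, and the 3 and 5 libraries all came from this 1 line. For the first 2 days the stem cells were turned into epiblast-like cells, a state that resembles the epiblast of the early embryo. They were then moved to round-bottom wells, where they grew as floating aggregates (embryoid bodies) in the medium GK15 to which no signalling factor was added. Day 4 is thus the second day of aggregation and day 7 the fifth, and both groups share the line, the medium and the aggregation. The labels describe the regime as close to a neural differentiation method and the cells of day 7 as neurectoderm, the layer that forms brain and spinal cord.

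Pluripotent cells of the epiblast are held in their state by the transcription factors Oct4, Nanog and Sox2, together with Nodal and fibroblast growth factor (FGF) signals. When these signals fade, epiblast cells that are not drawn into the primitive streak become neural. Neural cells keep Sox2, lose Oct4 and Nanog, and take on positions along the neural tube: Sonic hedgehog from the notochord and floor plate specifies ventral cells, and retinoic acid acting on Hox genes specifies the hindbrain.

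Both label and data showed this turn. Oct4 (gene Pou5f1) and Nanog fell while Sox2 and the neural factor Sox1 rose, with values given next. Neurons, hindbrain, ventral neural tube, mesenchyme, early blood and vessel genes were also higher at day 7, so the aggregates were not of 1 cell type by these markers. In bulk RNA, fewer cells of a type and less RNA per cell cannot be told apart, and this holds for every gene below.

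The values deposited by the authors were FPKM, fragments scaled to transcript length and to mapped depth, for 24103 gene entries, of which 14595 reached 1 FPKM in at least 3 libraries and were tested. Differences are day 7 minus day 4 on the scale log2(FPKM + 1), from a limma fit over all 34 libraries. Calls needed an adjusted p (Benjamini-Hochberg, over all genes) below 0.05 and a change of 1 or more in either direction. The labels call the replicates biological without saying whether each was a separate culture, so p-values measure the spread between these libraries. Fragment totals are unknown; between 11303 and 12212 genes per library reached 1 FPKM. Summed FPKM lay between 633652 and 734764 at day 4 and between 485696 and 516411 at day 7. Libraries of the same day correlated at Pearson r from 0.982 to 0.990 across genes and those of different days at 0.886 to 0.910. In 2 of the 8 libraries, replicate 1 of each day, the labels give, in the field for cell type, the stage 1 day earlier; both correlated best with the other libraries of their titled day (r = 0.987 against 0.982 with day 3, and 0.991 against 0.966 with day 6). The libraries came from sequencing projects that the labels number, here A (1 library of day 4 and 3 of day 7) and B (2 and 2).

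Of the genes tested, 2867 were called (19.6%), 1858 higher at day 7 (12.7%) and 1009 lower (6.91%). The libraries of the 2 days did not overlap for 9030 genes (61.9%), 4768 of them higher (32.7%) and 4262 lower (29.2%). The median difference of all genes was 0.03. It depended on level: among the 786 genes with a mean of at least 100 FPKM it was -0.61, so that abundant genes were on the whole lower at day 7. Of those 786, 16.8% were called lower and 2.42% higher. Of genes with a mean from 1 to below 10 FPKM, 21.6% were called higher and 7.33% lower. The list counts below were not adjusted for level. Under quantile normalization, which gives all libraries 1 distribution, 2597 genes were called and the share of calls that were higher went from 64.8% to 54.2%. Within project B alone 2640 genes were called, and within project A alone, where the lone day 4 library is assumed to vary like the other groups, 3454. Of the 2867 calls, 2123 were made in the same direction under quantile normalization, 2465 in project B and 2674 in project A. Without the 2 libraries whose cell type field names another stage, 2649 were called.

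Most genes of general pluripotency fell. Of 18 on the list, all tested, 13 fell, 1 rose and 4 were not called, with a median difference of -1.77 against 0.03 for all genes. The gene that encodes Oct4, Pou5f1 (entry XLOC_008827, mm9 chr17:35642977-35647722), was at 1076, 1141 and 1178 FPKM at day 4 and 47.0, 36.6, 39.3, 18.0 and 40.4 FPKM at day 7 (log2 -4.99, SE 0.27, adjusted p = 1.15e-15). Nanog, its partner in the pluripotency network (XLOC_017483, mm9 chr6:122657507-122664651), was at 220.1, 155 and 175 FPKM at day 4 and 20.4, 12.6, 11.9, 5.69 and 11.7 FPKM at day 7 (log2 -3.85, SE 0.27, adjusted p = 3.59e-13). The groups were far apart for both, and within day 7 replicate 1 was the highest and replicate 4 the lowest for each gene. Sox2 went the other way: it was at 32.9, 38.7 and 25.6 FPKM at day 4 and 77.6, 95.3, 89.8, 90.5 and 93.4 FPKM at day 7 (log2 1.45, SE 0.18, adjusted p = 5.92e-08). Every day 7 library exceeded every day 4 library, and the level at day 5, 31.4, 30.2 and 33.2 FPKM, still lay within the range of day 4. Sox2 is shared by pluripotent and neural cells.

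The proximal promoter of Nanog is shown because it holds a composite element that Oct4 and Sox2 bind in mouse stem cells, and these were the 2 factors that moved in opposite directions. The 250 bases before a RefSeq start of the gene (chr6:122707315-122707564, plus strand, build GRCm38.p6; the deposited table uses mm9) read:
Nanog: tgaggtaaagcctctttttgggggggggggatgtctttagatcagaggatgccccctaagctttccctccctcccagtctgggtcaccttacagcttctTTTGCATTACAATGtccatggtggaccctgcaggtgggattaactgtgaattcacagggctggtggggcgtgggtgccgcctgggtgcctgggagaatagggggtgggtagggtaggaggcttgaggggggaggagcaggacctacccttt
Capitals mark the motif TTTGCAT, of the POU family, followed after 1 free base by the Sox motif ACAATG, searched on both strands; they do not overlap. It begins 151 bases before this start, and 75 before the other RefSeq start of the gene. Of 27025 genes with such windows, 1 (0.0037%) held the motif, and that gene is Nanog itself. Only these exact letters were searched, with Nanog chosen in advance, so the count is no test of the motif and other forms of it were not counted. The match is a description of the sequence only.

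Some other members of the core list fell about as steeply, and others less or were not called. Tdgf1, the Nodal co-receptor Cripto (XLOC_022890, mm9 chr9:110842112-110848662), was at 469, 366 and 362 FPKM at day 4 and 10.98, 6.10, 6.34, 3.03 and 9.24 FPKM at day 7 (log2 -5.70, SE 0.25, adjusted p = 3.43e-18), the largest fall of those named by rule. L1td1, an RNA-binding protein of pluripotent cells, was at 132, 137 and 127 FPKM at day 4 and 5.38, 3.33, 3.69, 2.22 and 4.29 FPKM at day 7 (log2 -4.83, SE 0.26, adjusted p = 8.41e-16). Utf1, a chromatin-bound factor of pluripotent cells, was at 152, 157 and 118 FPKM at day 4 and 13.2, 11.2, 9.13, 5.02 and 10.7 FPKM at day 7 (log2 -3.77, SE 0.23, adjusted p = 1.02e-14). For all 3 the groups were far apart, and within day 7 replicate 1 was again the highest and replicate 4 the lowest. Gdf3, a ligand related to Nodal, fell from 16.2 ± 4.23 to 2.11 ± 0.725 FPKM (mean ± SD; log2 -2.47), and Dppa4, a chromatin protein of early embryo cells, from 34.5 ± 5.85 to 5.11 ± 1.33 (log2 -2.56). The 4 members not called were Zfp42 (log2 -0.96), Sall4 (-0.82), Trim71 (-0.48) and Jarid2 (-0.88). Both Pou5f1 and Nanog were still detected at day 7, Nanog at a mean of 12.5 FPKM next to 10.8 at day 6.

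**Figure D1:**
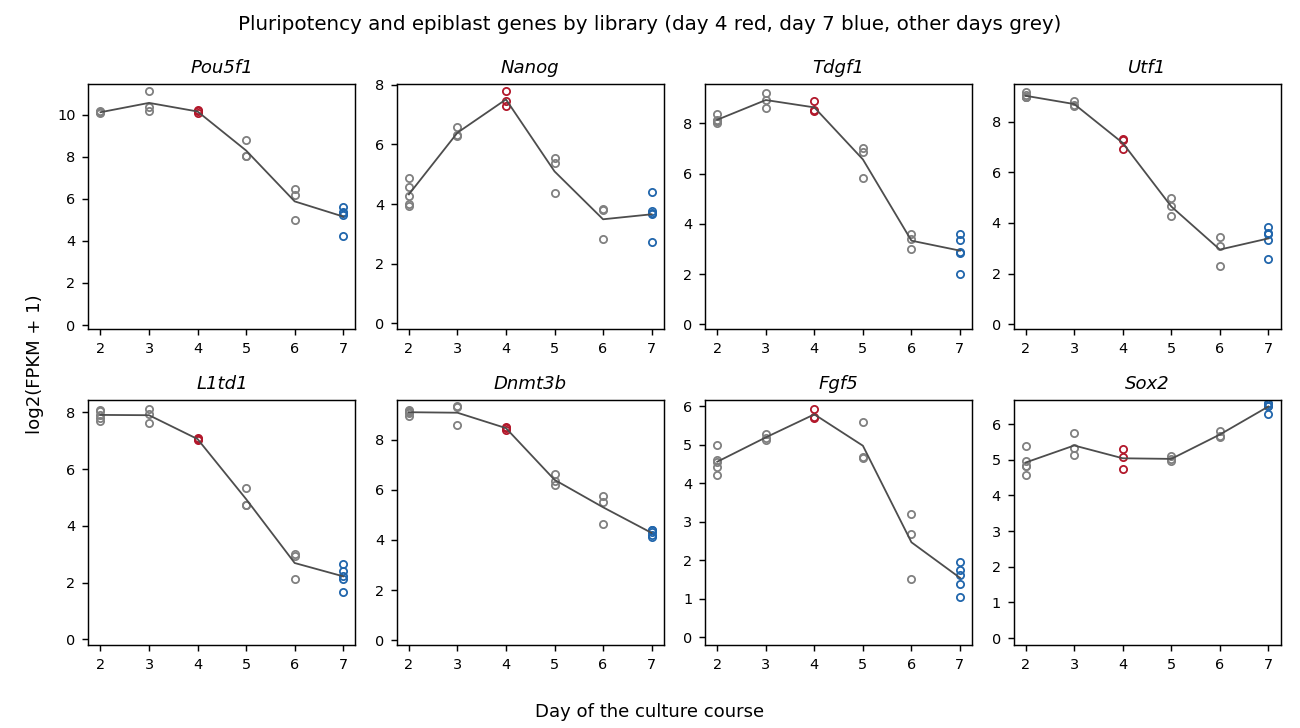
Levels of 8 pluripotency and epiblast genes in each library of days 2 to 7 (points), as log2(FPKM + 1), with lines through the day means. Day 4 (red, n = 3) and day 7 (blue, n = 5) do not overlap for any of the 8, Sox2 is the only one of them that is higher at day 7, and day 5 libraries of Pou5f1 (261 to 444 FPKM) lie between the 2.

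Genes of the naive state, which marks the stem cells before day 2, moved little in this interval. Of 14 naive genes tested 1 fell and none rose (median -0.38). That gene was Gbx2, a transcription factor also used at the border of midbrain and hindbrain, at 13.6, 27.4 and 17.8 FPKM at day 4 and 3.50, 3.12, 4.32, 4.86 and 5.74 FPKM at day 7 (log2 -1.93, SE 0.21, adjusted p = 5.2e-09). Its groups did not overlap, and it was higher at day 5 than on either day (33.5, 36.2 and 40.8 FPKM). Zfp42 (Rex1), a classic marker of naive cells, was at 20.5, 14.4 and 14.4 FPKM at day 4 and 16.2, 5.78, 7.91, 3.93 and 9.72 FPKM at day 7 (log2 -0.96, SE 0.25, adjusted p = 0.00136). Those groups overlapped through replicate 1 of day 7. Klf2, a naive factor, differed by -0.93 (adjusted p = 0.00936), and both Klf2 and Zfp42 passed the threshold when day 7 replicate 1 was left out (log2 -1.11 and -1.19). Under quantile normalization 4 of the 14 fell. Esrrb, an orphan receptor of naive cells, was at 6.37 and 5.52 FPKM on average and not called. Receptors and targets of leukaemia inhibitory factor, the cytokine that maintains naive cells, were 3 higher and 1 lower of 8. Lifr, its receptor, was at 1.12, 0.926 and 1.08 FPKM at day 4 and 4.38, 5.07, 4.89, 4.28 and 5.80 FPKM at day 7 (log2 1.52, SE 0.13, adjusted p = 1.9e-11). The kinase Pim2 was at 560.2, 644 and 548 FPKM at day 4 and 8.99, 16.3, 12.9, 6.95 and 9.08 FPKM at day 7 (log2 -5.68, SE 0.30, adjusted p = 4.54e-16), its groups lying far apart.

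Most genes of the formative epiblast, the state between naive and primed, fell. Of 13 tested, 9 fell and none rose (median -1.85). Fgf5, a growth factor of the epiblast, was at 52.2, 51.3 and 60.0 FPKM at day 4 and 2.86, 2.34, 2.10, 1.596 and 1.06 FPKM at day 7 (log2 -4.24, SE 0.32, adjusted p = 1.26e-12). Zic2, a zinc finger factor, was at 62.7, 68.5 and 64.2 FPKM at day 4 and 9.03, 6.25, 6.03, 5.41 and 8.31 FPKM at day 7 (log2 -3.07, SE 0.20, adjusted p = 4.02e-14). Pou3f1, a POU factor that epiblast and neural cells share, was at 29.0, 30.8 and 26.4 FPKM at day 4 and 5.64, 8.94, 7.85, 5.84 and 8.37 FPKM at day 7 (log2 -1.85, SE 0.19, adjusted p = 9.45e-10). Groups were apart for all 3. Otx2, needed in epiblast and forebrain, was at 41.4, 26.4 and 20.4 FPKM at day 4 and 23.0, 20.2, 35.2, 13.1 and 23.2 FPKM at day 7 (log2 -0.35, SE 0.26, adjusted p = 0.258), with overlapping groups. The other members not called were Sox3 (log2 0.58), Sall2 (0.75) and Car4 (-0.36), of which Sox3 is shared with neural cells.

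Genes of DNA methylation moved in both directions. Of 8 genes 4 fell and 1 rose. Dnmt3b, a de novo methyltransferase, was at 363, 354 and 335 FPKM at day 4 and 19.8, 19.05, 19.9, 16.2 and 17.4 FPKM at day 7 (log2 -4.18, SE 0.18, adjusted p = 3.88e-18) and at 71.3, 99.1 and 81.5 FPKM at day 5, with groups far apart. Dnmt3l, its cofactor, fell from 13.2 ± 2.57 to 1.77 ± 0.753 FPKM (log2 -2.40), and Tet1, which oxidizes methylcytosine, from 11.7 ± 0.409 to 4.23 ± 0.679 (log2 -1.29). Tet3, an enzyme of the same family, rose from 2.44 ± 0.292 to 11.5 ± 0.825 FPKM (log2 1.86). Dnmt3a fell by 1.07, a call that ended under quantile normalization (log2 -0.98). The maintenance enzyme Dnmt1 was at 57.4 and 60.4 FPKM (log2 0.08). Of 10 germline genes, many of which are kept silent by methylation in somatic cells, 3 fell and none rose. These were Mael (3.29 ± 0.452 to 0.26 ± 0.203 FPKM, log2 -1.77), Ddx4 (1.98 ± 0.641 to 0.287 ± 0.143, log2 -1.20) and Sycp3 (3.40 ± 1.28 to 0.664 ± 0.379, log2 -1.40), all under 5 FPKM on day 4 already. Sycp3 was not called in project B alone (-0.98), and with a pseudocount of 5 FPKM none of the 10 was called (Mael -0.66, Ddx4 -0.40, Sycp3 -0.56).

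Genes of the signals that hold the epiblast fell in part. In the Nodal list 8 of 14 fell and none rose (median -1.59). Nodal itself, the TGF-beta family ligand, was at 53.2, 53.7 and 53.8 FPKM at day 4 and 3.77, 2.58, 3.91, 1.32 and 3.59 FPKM at day 7 (log2 -3.81, SE 0.29, adjusted p = 1.64e-12). Foxh1, a transcription partner of its Smad proteins, was at 79.5, 79.4 and 80.1 FPKM at day 4 and 4.61, 8.08, 7.97, 4.04 and 8.54 FPKM at day 7 (log2 -3.45, SE 0.18, adjusted p = 2.98e-16). Both were nearly the same in the 3 day 4 libraries and apart from day 7. The inhibitors that Nodal induces fell too: Lefty1 was at 68.9, 100.7 and 139.7 FPKM at day 4 and 8.74, 8.59, 5.78, 5.72 and 7.76 FPKM at day 7 (log2 -3.61, adjusted p = 2.49e-08). Lefty2 fell from 63.9 ± 9.94 to 4.88 ± 1.73 FPKM (log2 -3.51). The receptor genes Acvr1b and Acvr2b were not called, with differences of 0.44 and 0.95. In the FGF list 8 of 13 fell and none rose (median -1.69). Fgf8, a ligand of streak and tail, was at 94.8, 132 and 112 FPKM at day 4 and 4.58, 4.70, 5.99, 2.53 and 5.70 FPKM at day 7 (log2 -4.35, SE 0.42, adjusted p = 2.57e-10). Its level at day 5, 130.4, 118 and 131 FPKM, lay within the range of day 4. Spry2, a feedback inhibitor that FGF signalling induces, fell from 63.7 ± 12.1 to 11.6 ± 1.79 FPKM (log2 -2.35), and Etv5, a target transcription factor, from 76.8 ± 5.30 to 15.2 ± 6.21 (log2 -2.33). Of 8 Wnt targets 3 fell, among them the nuclear effectors Tcf7 (log2 -1.67) and Lef1 (-1.61); the third, Sp5 (-1.04), lost its call when any of 4 single libraries was left out (day 4 replicate 2 or 3, day 7 replicate 2 or 4; log2 -0.99 to -0.83 in all such fits that ended it) and in each project alone (-1.49 in B and -0.28 in A).

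Primitive streak genes were of 2 kinds. Of 14 tested 5 fell and 1 rose. Eomes, a T-box factor of streak and endoderm, was at 48.1, 51.3 and 52.3 FPKM at day 4 and 0.689, 0.779, 0.652, 0.512 and 0.345 FPKM at day 7 (log2 -5.02, SE 0.20, adjusted p = 8.58e-19). Mixl1, a homeobox factor of the streak, was at 3.93, 7.78 and 15.4 FPKM at day 4 and 0.148, 0.0769, 0.079, 0.0798 and 0 FPKM at day 7 (log2 -3.05, SE 0.26, adjusted p = 3.13e-11). Wnt3, the ligand that starts the streak, fell from 10.7 ± 2.25 to 0.605 ± 0.24 FPKM (log2 -2.86). All 3 were below 1 FPKM in every day 7 library. T (brachyury), a T-box factor of streak and notochord, was at 23.6, 57.7 and 95.7 FPKM at day 4 and 69.9, 59.2, 112, 62.2 and 68.3 FPKM at day 7 (log2 0.50, SE 0.37, adjusted p = 0.245). Its groups overlapped, and its difference turned from 0.50 to -0.04 without day 4 replicate 1, to -0.03 without both libraries of doubtful stage and to -0.19 in project B alone, while it was called higher in project A alone (log2 1.67).

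Some genes were highest between the 2 days compared. T stood at 388, 621 and 575 FPKM at day 5 and at 401, 198 and 314 FPKM at day 6, above all 8 libraries compared. Noto, a homeobox factor of the node, was at 0.224, 0.924 and 0.787 FPKM at day 4 and 1.83, 0.393, 0.31, 0.308 and 0.53 FPKM at day 7, and at 39.4, 85.0 and 119 FPKM at day 5. Cer1, a secreted inhibitor of Nodal, was at 2.68 and 2.06 FPKM on average on days 4 and 7 and at 100.4, 222 and 142 FPKM at day 5. In all, 100 of the 11728 genes not called were at least 2 higher on the log2 scale at day 5 or day 6 than on both days compared, 96 of them highest at day 5, and 3 were as much lower. The 3 were Ina and the small RNA entries Snora3 and AF357399. Both of these small RNA entries were listed at 0 in some libraries of days 4 to 7. The same holds for some small RNA entries among the 100, such as Mir92-2, Mir25 and Snord32a. Tbx6 and Msgn1, factors of presomitic mesoderm, were also among the 100, with day 5 means of 16.6 and 23.1 FPKM. So were Cdx2, a caudal homeobox factor (48.9 FPKM at day 5), and Wnt3a, a tail bud ligand (6.90 FPKM). Dnajb13, a protein of cilia and flagella chosen after its values were seen, was at 29.9 FPKM at day 5 against 0.242 and 0.0782 on days 4 and 7, and Enkur, chosen likewise, at 32.8 against 0.378 and 0.621. Foxj1, the transcription factor that drives motile cilia, was at 32.1, 109 and 107 FPKM at day 5 and 2.78 FPKM on average at day 7; its call as lower at day 7 (log2 -1.36) was lost without day 4 replicate 3 (log2 -1.07) and in each project alone (-1.69 in B and -0.68 in A).

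Axial midline genes were mixed, with 3 of 10 higher and 1 lower. Foxa2, a forkhead factor of node, floor plate and endoderm, was at 26.7, 38.3 and 58.1 FPKM at day 4 and 43.7, 60.0, 72.0, 53.2 and 68.8 FPKM at day 7 (log2 0.57, SE 0.35, adjusted p = 0.159), and was called in project A alone (log2 1.07). Chrd, an inhibitor of bone morphogenetic protein (BMP), was at 5.01, 13.3 and 18.8 FPKM at day 4 and 5.73, 8.36, 7.01, 4.77 and 6.20 FPKM at day 7 (log2 -0.71, SE 0.34, adjusted p = 0.0701), with day 4 replicate 1 the lowest of its group. Without that library it was called lower (log2 -1.20), and in project A alone its sign reversed (0.41). Nog, another BMP inhibitor, rose from 0.238 ± 0.113 to 6.53 ± 0.893 FPKM (log2 2.60). In the endoderm list 4 of 9 rose, led by Foxa1 (0.152 ± 0.0299 to 17.0 ± 5.59 FPKM, log2 3.91), which floor plate cells also express, and by the chemokine receptor Cxcr4 (0.941 ± 0.158 to 31.9 ± 2.40, log2 4.08), found in many tissues. Sox17, the defining endoderm factor, was at 0, 0 and 0.139 FPKM at day 4 and 2.05, 1.33, 1.10, 1.63 and 1.29 FPKM at day 7 (log2 1.23, SE 0.14, adjusted p = 1.31e-08), so its day 7 level was low, and it was higher at day 5 (10.3, 15.7 and 10.6 FPKM). Visceral endoderm markers were 4 higher and 2 lower of 6 tested (median 1.08). Dab2, an endocytic adaptor, rose from 2.07 ± 0.395 to 11.9 ± 1.09 FPKM (log2 2.07), Rbp4, a retinol carrier, from 2.96 ± 0.274 to 10.1 ± 1.75 (log2 1.47), and Amn, the receptor partner amnionless, fell from 1.55 ± 0.523 to 0.222 ± 0.16 (log2 -1.05, a call lost in project A alone, -0.88, and without day 4 replicate 3, -0.89, or day 7 replicate 5, -0.99). With a pseudocount of 5 FPKM 1 of the 6 rose and 1 fell, and 2 of the 9 definitive endoderm genes rose. Hnf4a, Afp, Cubn and Apob of the endoderm lists were below the filter.

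Most neural progenitor genes rose. Of 15 tested 13 rose and none fell (median 1.89). Sox1, the earliest marker of committed neural cells, was at 1.87, 1.61 and 1.52 FPKM at day 4 and 13.4, 20.7, 15.9, 16.8 and 16.2 FPKM at day 7 (log2 2.71, SE 0.24, adjusted p = 5.18e-11). Pax6, a homeobox factor of neural progenitors, was at 0.593, 0.492 and 0.171 FPKM at day 4 and 4.15, 4.69, 2.57, 6.27 and 4.06 FPKM at day 7 (log2 1.89, SE 0.21, adjusted p = 3.58e-09). Sox21, a Sox factor of neural progenitors, was at 0.349, 0.23 and 0.447 FPKM at day 4 and 18.0, 25.8, 21.0, 24.1 and 19.8 FPKM at day 7 (log2 4.07, SE 0.14, adjusted p = 3.09e-20). In all 3 the groups were apart, though Pax6 stayed at a few FPKM. Pou3f2 (Brn2), a POU factor of neural cells, was at 0.0747, 0.0256 and 0.0735 FPKM at day 4 and 13.9, 20.2, 9.58, 18.5 and 11.6 FPKM at day 7 (log2 3.85, SE 0.20, adjusted p = 4.26e-16). The radial glia gene Fabp7 (brain lipid-binding protein) was at 3.33, 4.48 and 3.37 FPKM at day 4 and 69.8, 76.7, 73.2, 69.6 and 34.5 FPKM at day 7 (log2 3.75, SE 0.29, adjusted p = 2.18e-12), with replicate 5 well below the other day 7 libraries. The 2 members not called were Sox3 and Nes, the gene of the filament nestin (log2 0.82). Some markers of mesenchyme, blood and vessels rose in the same libraries, with values given further on, and their part in these rises was not tested.

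Ventral neural tube genes had the largest median rise of the 40 lists. Of 14 tested 13 rose, none fell, and the median was 4.10. Shh, the ligand Sonic hedgehog (XLOC_016398, mm9 chr5:28783380-28793641), was at 0, 0.162 and 0 FPKM at day 4 and 55.2, 62.0, 136, 61.1 and 92.4 FPKM at day 7 (log2 6.20, SE 0.27, adjusted p = 3.35e-18). It was already at 8.07, 18.9 and 27.9 FPKM at day 5 and at 109, 48.6 and 89.9 at day 6, and at day 7 replicate 3 was the highest. Its direct targets rose. Gli1, a transcription factor that reports hedgehog signalling, was at 1.02, 0.786 and 1.09 FPKM at day 4 and 34.6, 34.7, 25.4, 41.6 and 43.3 FPKM at day 7 (log2 4.21, SE 0.18, adjusted p = 2.77e-18). Ptch1, the receptor and target, went from 4.65 ± 0.214 to 81.5 ± 13.1 FPKM (log2 3.85), chosen after its values were seen. Factors that divide the ventral tube into domains rose with them. Nkx6-1 was at 0, 0.378 and 0.245 FPKM at day 4 and 44.7, 81.9, 49.9, 77.7 and 54.8 FPKM at day 7 (log2 5.67, SE 0.24, adjusted p = 2.48e-18). Nkx2-9 was at 0.166, 0.184 and 0.181 FPKM at day 4 and 54.2, 81.1, 83.6, 89.2 and 84.5 FPKM at day 7 (log2 6.06, SE 0.24, adjusted p = 4.04e-19), and replicate 1 was the low library. Nkx2-2, the factor of the domain next to the floor plate, rose from 0.0755 ± 0.0676 to 13.2 ± 3.85 FPKM (log2 3.68). Olig2, the motor neuron progenitor factor, chosen after its values were seen, was listed at 0 in all 3 libraries of day 4, and reached 22.5, 33.3, 11.8, 46.7 and 16.2 FPKM at day 7. Within day 7, Olig2 and Nkx6-1 were highest in replicates 2 and 4 and Shh in replicates 3 and 5.

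**Figure D2:**
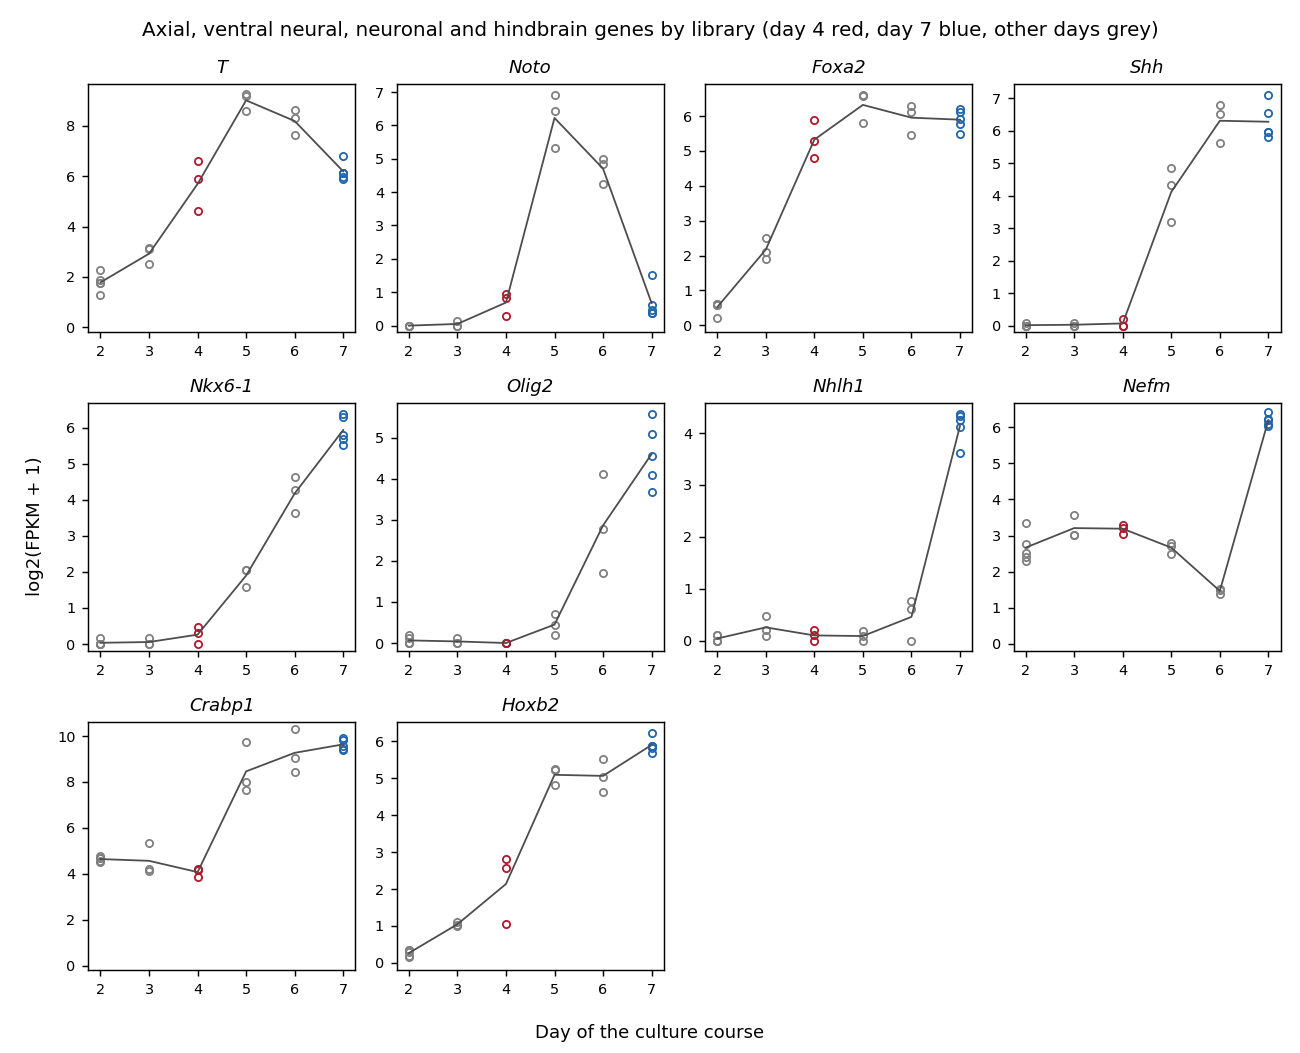
Levels of 10 axial, ventral neural, neuronal and hindbrain genes in each library of days 2 to 7 (points), as log2(FPKM + 1), with lines through the day means. T and Noto peak at day 5 and overlap between day 4 (red, n = 3) and day 7 (blue, n = 5), Shh has risen by day 6, and Nhlh1 and Nefm are highest at day 7.

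Most genes of Notch signalling and neurogenesis rose: 14 of 16 tested, with none lower and a median of 2.62. Neurod4, a factor of newborn neurons, was listed at 0 in all 3 libraries of day 4, and reached 25.5, 34.5, 25.5, 34.0 and 17.9 FPKM at day 7. All 5 day 7 libraries were above those of day 4, and day 6 libraries were at 1.54 to 6.19 FPKM. Among ligands Dll4 rose from 0.0821 ± 0.0568 to 4.09 ± 0.878 FPKM (log2 2.22). Notch effectors rose too: Hey1 was at 2.22, 2.19 and 1.71 FPKM at day 4 and 34.0, 34.2, 34.4, 30.4 and 34.1 FPKM at day 7 (log2 3.50, SE 0.22, adjusted p = 2.8e-14). Hes5, the repressor that Notch induces in neural progenitors, was at 0.167, 0.548 and 0 FPKM at day 4 and 17.3, 48.7, 9.11, 26.0 and 21.8 FPKM at day 7 (log2 4.20, SE 0.34, adjusted p = 5.19e-12), and its day 7 libraries were spread widely, replicate 2 being the highest and replicate 3 the lowest. Hes1, a related repressor, was at 37.7 and 58.0 FPKM and not called (log2 0.61).

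The promoter of Hes5 is shown because it carries sites of RBPJ, the DNA-binding partner of Notch, known from mouse cells. Its 250 bases before the RefSeq start (chr4:154960673-154960922, plus strand, GRCm38.p6) read:
Hes5: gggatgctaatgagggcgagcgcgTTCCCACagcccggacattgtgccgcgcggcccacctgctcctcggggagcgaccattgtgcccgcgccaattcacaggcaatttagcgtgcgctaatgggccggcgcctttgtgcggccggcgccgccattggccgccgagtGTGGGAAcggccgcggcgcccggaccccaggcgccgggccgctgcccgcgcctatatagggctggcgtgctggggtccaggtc
Capitals mark GTGGGAA on either strand, found 226 bases before the start in the opposite orientation and 83 before it in the same orientation. Of all genes with windows, 6.18% held this motif.

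Most neuronal genes rose as well. Of 13 tested 10 rose and none fell (median 2.03). Nhlh1, a factor of newborn neurons, was at 0.151, 0 and 0.0784 FPKM at day 4 and 18.1, 19.6, 16.4, 18.97 and 11.3 FPKM at day 7 (log2 4.03, SE 0.14, adjusted p = 2.08e-20). Elavl4 (HuD), a neuronal RNA-binding protein, was at 0.3, 0.567 and 0.234 FPKM at day 4 and 31.5, 39.0, 26.5, 34.9 and 22.4 FPKM at day 7 (log2 4.52, SE 0.17, adjusted p = 1.35e-19). Nefm, a neurofilament gene, was at 7.28, 8.89 and 8.28 FPKM at day 4 and 72.4, 85.1, 66.4, 74.4 and 64.4 FPKM at day 7 (log2 3.00, SE 0.24, adjusted p = 4.28e-12). Groups were apart in all 3. Of the 10 that rose, none had passed the midpoint between its day 4 and day 7 levels by day 5 and 1 by day 6. Dcx, a microtubule protein of young neurons, was at 1.20 FPKM on day 4, 0.206 and 0.124 on days 5 and 6, and 6.68 on day 7. The 3 members not called were Stmn2, Ina and Rbfox3 (log2 0.65, 0.49 and 0.79).

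Most hindbrain and Hox genes rose, and Six3 and Hesx1 of the forebrain rose to a low level. Of 14 hindbrain and Hox genes tested 12 rose and none fell (median 2.69). Hoxb2, a Hox gene of the hindbrain, was at 1.06, 4.91 and 5.98 FPKM at day 4 and 58.1, 57.9, 50.7, 74.5 and 56.1 FPKM at day 7 (log2 3.77, SE 0.24, adjusted p = 4.37e-14). Hoxd3 was at 0, 0 and 0.0623 FPKM at day 4 and 26.2, 19.7, 12.3, 28.1 and 29.9 FPKM at day 7 (log2 4.51, SE 0.21, adjusted p = 1.46e-17). Hoxb3 was at 0, 0.11 and 0.0537 FPKM at day 4 and 22.6, 15.3, 11.8, 28.0 and 18.4 FPKM at day 7 (log2 4.21, SE 0.22, adjusted p = 4.95e-16). In the latter pair replicates 2 and 3 were the lowest of day 7. Of 11 forebrain and midbrain genes 7 passed the filter and 3 rose. Six3, a homeobox factor of the anterior forebrain, was at 0, 0 and 0.106 FPKM at day 4 and 1.16, 1.64, 2.66, 1.24 and 1.15 FPKM at day 7 (log2 1.28, SE 0.23, adjusted p = 1.51e-05). Hesx1, another homeobox factor of the anterior embryo, rose from 0.0493 ± 0.0853 to 2.41 ± 0.689 FPKM (log2 1.67), a call lost in project B alone (1.45). With a pseudocount of 5 FPKM none of the 7 was called (Six3 0.38, Hesx1 0.55). Rax, Pax2, Pax5 and Pax8 were below the filter. The mean of Six3 at day 7 was 1.57 FPKM, while Hoxb2 exceeded 50 FPKM in all 5 libraries. Otx2, also on the forebrain and midbrain list, was not called. Its day 7 values, given above with the formative genes, all exceeded those of Six3.

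Genes of retinoic acid, the vitamin A derivative that sets Hox levels, were 8 higher and 2 lower of 14 (median 2.35). Crabp1, a retinoic acid binding protein, was at 17.3, 13.5 and 16.9 FPKM at day 4 and 672, 962, 763, 917 and 701 FPKM at day 7 (log2 5.56, SE 0.38, adjusted p = 1.85e-13). Aldh1a2, the enzyme that makes retinoic acid, was at 0, 0.296 and 0 FPKM at day 4 and 38.4, 17.9, 14.6, 40.5 and 26.1 FPKM at day 7 (log2 4.60, SE 0.33, adjusted p = 4.86e-13). Rarb, a receptor and target of retinoic acid, was at 0.898, 0.593 and 0.469 FPKM at day 4 and 18.4, 11.7, 13.9, 15.7 and 18.3 FPKM at day 7 (log2 3.32, SE 0.15, adjusted p = 1.89e-17). The groups were apart, and Rarb was still at 0.375, 0.306 and 0.457 FPKM at day 5. Stra6, a retinol transporter, rose from 0.833 ± 0.265 to 11.4 ± 2.78 FPKM (log2 2.75). Cyp26a1, which degrades retinoic acid, was at 1.16, 2.23 and 4.62 FPKM at day 4 and 29.5, 17.4, 20.3, 19.1 and 12.8 FPKM at day 7 (log2 2.57, SE 0.27, adjusted p = 2.51e-09), named after its values were seen. The 2 that fell, also named after their values were seen, were Rarg, another receptor (28.1 ± 2.09 to 9.72 ± 2.15 FPKM, log2 -1.47), and Dhrs3, a reductase (19.9, 20.6 and 19.6 FPKM at day 4 and 5.67, 3.48, 4.01, 4.18 and 5.88 FPKM at day 7, log2 -1.92).

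The promoters of Rarb and Cyp26a1 are shown because both carry the direct repeat that retinoic acid receptors bind. The 250 bases before the RefSeq starts are Rarb (chr14:16575477-16575726, minus strand) and Cyp26a1 (chr19:37697558-37697807, plus strand), both GRCm38.p6:
Rarb: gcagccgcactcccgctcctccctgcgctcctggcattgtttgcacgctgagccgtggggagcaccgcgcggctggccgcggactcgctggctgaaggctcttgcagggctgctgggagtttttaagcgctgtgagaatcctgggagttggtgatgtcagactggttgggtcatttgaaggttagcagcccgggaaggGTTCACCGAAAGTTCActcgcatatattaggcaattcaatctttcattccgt
Cyp26a1: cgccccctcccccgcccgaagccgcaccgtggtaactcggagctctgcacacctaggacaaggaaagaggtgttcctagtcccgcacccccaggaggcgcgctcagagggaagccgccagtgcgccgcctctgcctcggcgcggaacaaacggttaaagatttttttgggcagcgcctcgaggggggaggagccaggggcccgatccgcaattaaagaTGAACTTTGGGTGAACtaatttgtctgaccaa
Capitals mark GTTCA and a repeat of it after 6 free bases, or the reverse complement, 52 bases before the Rarb start in the same orientation and 32 before the Cyp26a1 start in the opposite one. The motif stood in the windows of 21 genes (0.0777%), of which 5 were tested here, 2 called higher and 1 lower. Of all genes tested 12.7% were called higher and 6.91% lower. The 2 called higher are Rarb and Cyp26a1 themselves, shown with their values known, so these counts are no test of the motif.

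BMP targets rose in part, 7 of 11 with 1 lower (median 1.37). Id1, an inhibitor of differentiation factors and an early BMP target, was at 4.56, 4.02 and 5.99 FPKM at day 4 and 72.9, 55.1, 83.0, 65.2 and 57.7 FPKM at day 7 (log2 3.53, SE 0.24, adjusted p = 1.03e-13). Id3 was at 48.4, 73.1 and 76.5 FPKM at day 4 and 209, 179.9, 291, 175 and 202 FPKM at day 7 (log2 1.67, SE 0.20, adjusted p = 3.78e-08). Both were apart between days. Bmp7, a ligand, rose from 1.67 ± 0.843 to 10.9 ± 2.21 FPKM (log2 2.19). Msx1, a homeobox target of BMP named as the only member that fell, went from 1.96 ± 0.273 to 0.458 ± 0.358 FPKM (log2 -1.05), a call lost without day 4 replicate 1 (-0.98), day 7 replicate 2 (-0.98) or day 7 replicate 4 (-0.95). The feedback inhibitors Bambi and Smad6 were not called (log2 0.15 and 0.43).

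Nearly all imprinted genes tested rose. Of 16 tested 14 rose and 1 fell (median 2.32). The entry that holds H19, a noncoding RNA, and Mir675 was at 10.5, 7.52 and 6.12 FPKM at day 4 and 1502, 799, 1419, 736 and 1021 FPKM at day 7 (log2 6.89, SE 0.32, adjusted p = 2.5e-17). Igf2, a growth factor next to H19, was at 1.17, 1.39 and 1.14 FPKM at day 4 and 189.8, 105.2, 165, 92.0 and 148 FPKM at day 7 (log2 5.93, SE 0.28, adjusted p = 2.35e-17). In both, replicates 2 and 4 were the lowest of day 7. Nnat, neuronatin, was at 20.1, 25.4 and 25.4 FPKM at day 4 and 611, 716, 775, 650.1 and 562 FPKM at day 7 (log2 4.75, SE 0.35, adjusted p = 6.79e-13). Mest rose from 65.7 ± 0.936 to 429 ± 48.1 FPKM (log2 2.68). The member that fell was the shared entry of Snrpn and Snurf, at 235, 214 and 197 FPKM at day 4 and 40.5, 43.4, 45.9, 45.4 and 44.1 FPKM at day 7 (log2 -2.27, SE 0.14, adjusted p = 2.8e-14). The entry of Meg3 and its miRNAs was not called (log2 -0.24). Values of entries that name several genes cannot be assigned to 1 of them. Igfbp5, which binds insulin-like growth factors (XLOC_000854, mm9 chr1:72904639-72921439), was at 0.874, 0.665 and 0.762 FPKM at day 4 and 293, 239, 314, 230.0 and 296 FPKM at day 7 (log2 7.28, SE 0.30, adjusted p = 1.49e-18), the largest rise of those named by rule.

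**Figure D3:**
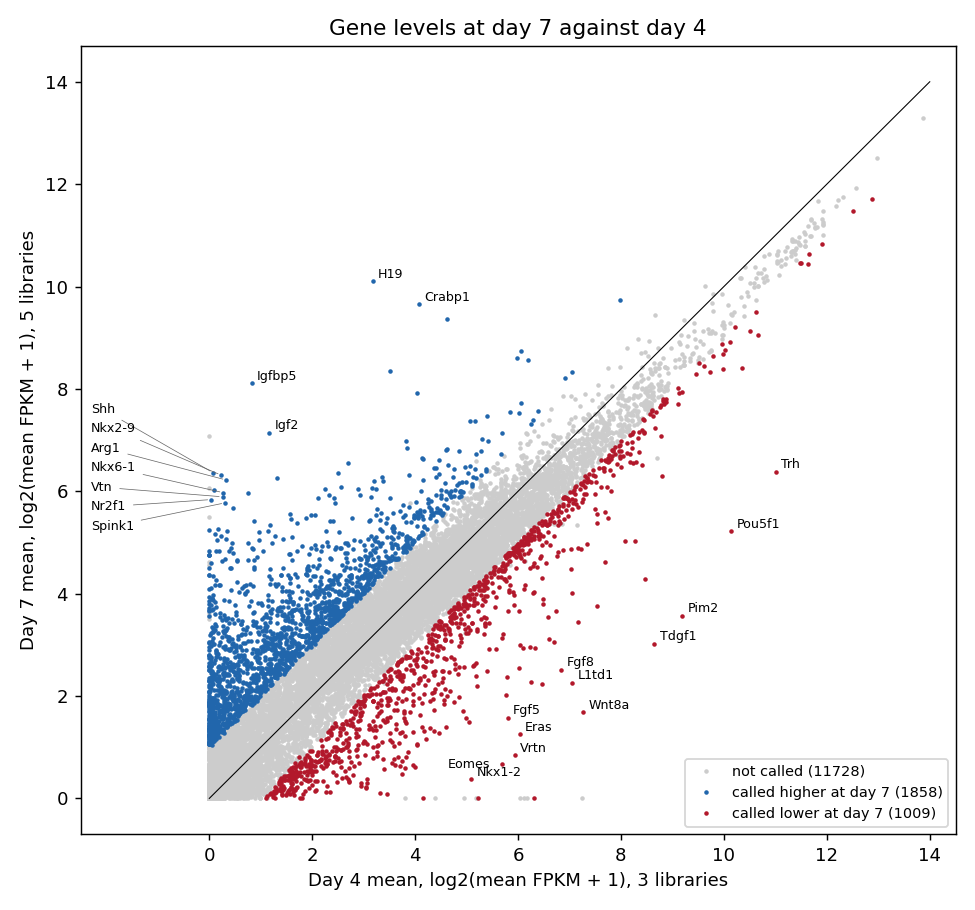
Mean level of each gene tested at day 7 (5 libraries, vertical) against day 4 (3 libraries, horizontal), as log2(mean FPKM + 1), with the line of equal levels. Genes called higher (1858, blue) and lower (1009, red) are coloured. The genes named in the text from the 12 largest rises and 12 largest falls are labelled. Genes with a mean of at least 100 FPKM lie on the whole below the line (median difference -0.61), though 2.42% of them were called higher.

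Beyond the lists, the 12 largest falls held Wnt8a, a Wnt ligand of the posterior epiblast (119, 169 and 167 FPKM at day 4 and 1.43, 2.22, 2.58, 2.75 and 2.09 FPKM at day 7; log2 -5.57). Vrtn, known in pigs for vertebra number, fell from 60.0 ± 5.44 to 0.789 ± 0.424 FPKM (log2 -5.12), and Eras, a Ras protein of stem cells, from 64.5 ± 8.30 to 1.38 ± 0.63 (log2 -4.81). Nkx1-2, a homeobox factor of the caudal epiblast, fell from 33.1 ± 9.70 to 0.294 ± 0.231 FPKM (log2 -4.69). Trh, the gene of thyrotropin-releasing hormone, was the most abundant of the 12, at 2004, 2033 and 2119 FPKM at day 4 and 88.4, 98.7, 74.1, 85.5 and 63.4 FPKM at day 7 (log2 -4.64, SE 0.35, adjusted p = 1.13e-12). The 12 largest rises held Nr2f1 (COUP-TF1), an orphan receptor of neural cells (0.0261 ± 0.0452 to 56.2 ± 14.8 FPKM, log2 5.76). Vtn, vitronectin, a matrix protein that floor plate cells also make, rose from 0.198 ± 0.172 to 58.4 ± 9.23 FPKM (log2 5.63). Arg1, arginase, was at 0, 0.554 and 0.213 FPKM at day 4 and 94.9, 38.3, 61.9, 84.7 and 87.9 FPKM at day 7 (log2 5.85, SE 0.20, adjusted p = 1.9e-20), with replicate 2 the lowest of day 7. Spink1, a protease inhibitor, was at 0, 0 and 0.715 FPKM at day 4 and 69.4, 50.04, 62.0, 56.1 and 31.1 FPKM at day 7 (log2 5.47, SE 0.22, adjusted p = 4.57e-19), after a mean of 269.9 FPKM at day 6.

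Adhesion genes exchanged cadherins. Cdh1, E-cadherin of epithelia and epiblast, was at 184, 213 and 222 FPKM at day 4 and 57.4, 38.1, 53.4, 38.4 and 49.8 FPKM at day 7 (log2 -2.11, SE 0.18, adjusted p = 1.85e-11). Cdh2, N-cadherin of neural and mesenchymal cells, was at 3.25, 4.43 and 5.63 FPKM at day 4 and 44.5, 53.8, 52.8, 61.3 and 55.3 FPKM at day 7 (log2 3.34, SE 0.16, adjusted p = 4.03e-17). The groups were apart in both, and Cdh2 had reached 41.3, 45.1 and 54.0 FPKM by day 5. Of 16 genes of adhesion and epithelial state 7 rose and 3 fell. Zeb1, a repressor of E-cadherin, rose from 0.641 ± 0.0965 to 16.9 ± 2.71 FPKM (log2 3.44), and Vim, vimentin, from 71.7 ± 14.4 to 375 ± 60.9 (log2 2.38). Twist1, a mesenchymal factor, was at 1.47, 1.70 and 1.90 FPKM at day 4 and 37.0, 12.4, 20.8, 16.2 and 22.2 FPKM at day 7 (log2 2.99, SE 0.22, adjusted p = 7.03e-13), with replicate 1 the highest and replicate 2 the lowest of day 7.

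Markers of mesenchyme mostly rose, and those of other cell types did so in part. Of all genes with a mean from 1 to below 10 FPKM, 21.6% were called higher. Of 13 fibroblast and mesenchyme markers 10 rose and 1 fell, and their summed level was 105.4 to 108.9 FPKM at day 4 and 146 to 279 at day 7, where replicates 1 and 3 were the highest and replicate 2 the lowest. Col3a1, a collagen of connective tissue, was at 0.321, 0.027 and 0.026 FPKM at day 4 and 51.1, 17.2, 39.1, 38.6 and 40.8 FPKM at day 7 (log2 5.02, SE 0.24, adjusted p = 3.01e-17). Col1a2 was at 1.13, 0.372 and 0.329 FPKM at day 4 and 17.6, 11.3, 14.1, 13.2 and 18.1 FPKM at day 7 (log2 3.32, SE 0.21, adjusted p = 1.6e-14). Lum, lumican, was at 0.0835, 0 and 0.0777 FPKM at day 4 and 16.5, 6.32, 16.7, 10.6 and 18.3 FPKM at day 7 (log2 3.71, SE 0.27, adjusted p = 8.2e-13). Thy1, a surface protein, was the member that fell (6.50 ± 1.35 to 0.617 ± 0.269 FPKM, log2 -2.22). Blood markers were 3 higher of 7 tested, with sums of 0.285 to 0.667 FPKM at day 4 and 19.6 to 97.4 at day 7. Hbb-bh1, an embryonic globin, was listed at 0 in all 3 libraries of day 4, and reached 45.2, 30.5, 7.04, 53.7 and 47.5 FPKM at day 7, and Hba-x, another, was listed at 0 in all 3 libraries of day 4, and reached 29.7, 17.5, 9.29, 34.0 and 38.7 FPKM at day 7. Replicate 3 was the lowest day 7 library for both, and Ptprc and Lyl1, which mark white cells and blood precursors, were below the filter. Endothelial markers were 4 higher of 7, with sums of 4.68 to 6.54 FPKM at day 4 and 15.5 to 50.3 at day 7. Cdh5, the cadherin of vessels, was listed at 0 in all 3 libraries of day 4, and reached 9.45, 2.30, 3.84, 3.98 and 5.24 FPKM at day 7, and Kdr, a receptor of vascular growth factor, was at 0.111, 0.312 and 0.273 FPKM at day 4 and 8.93, 3.33, 3.63, 3.96 and 4.87 FPKM at day 7 (adjusted p = 1.97e-12), both highest in replicate 1. Neural crest markers were 2 higher and 1 lower of 8, with sums of 12.5 to 17.7 and 20.3 to 35.8 FPKM. Sox10, the defining one, stayed below 0.4 FPKM in all 8 libraries. Surface ectoderm markers were 1 higher of 5 (sums 3.32 to 3.62 and 4.45 to 9.47), with Trp63 and Krt14 below the filter. Trophoblast markers were 2 higher of 5 (sums 6.52 to 8.88 and 20.5 to 29.9), with Elf5 and Hand1 below it. Replicate 2 had the lowest day 7 sums for mesenchyme, endothelium, neural crest and trophoblast. The lowest blood sum was in replicate 3 and the lowest surface ectoderm sum in replicate 4. Of neural progenitor genes given by library, Sox1, Sox2, Sox21, Pou3f2, Fabp7 and Hes5 were highest in replicate 2. Pax6 and Cdh2 were highest in replicate 4. This pattern of 1 library was picked after the values were seen, and its cause was not tested. With a pseudocount of 5 FPKM 7 mesenchyme, 2 blood, 1 endothelial, 1 trophoblast and no surface ectoderm marker rose, and neither Cdh5 (log2 0.96) nor Kdr (0.90) was called. What part such cells had in the changes of the other lists was not tested.

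**Figure D4:**
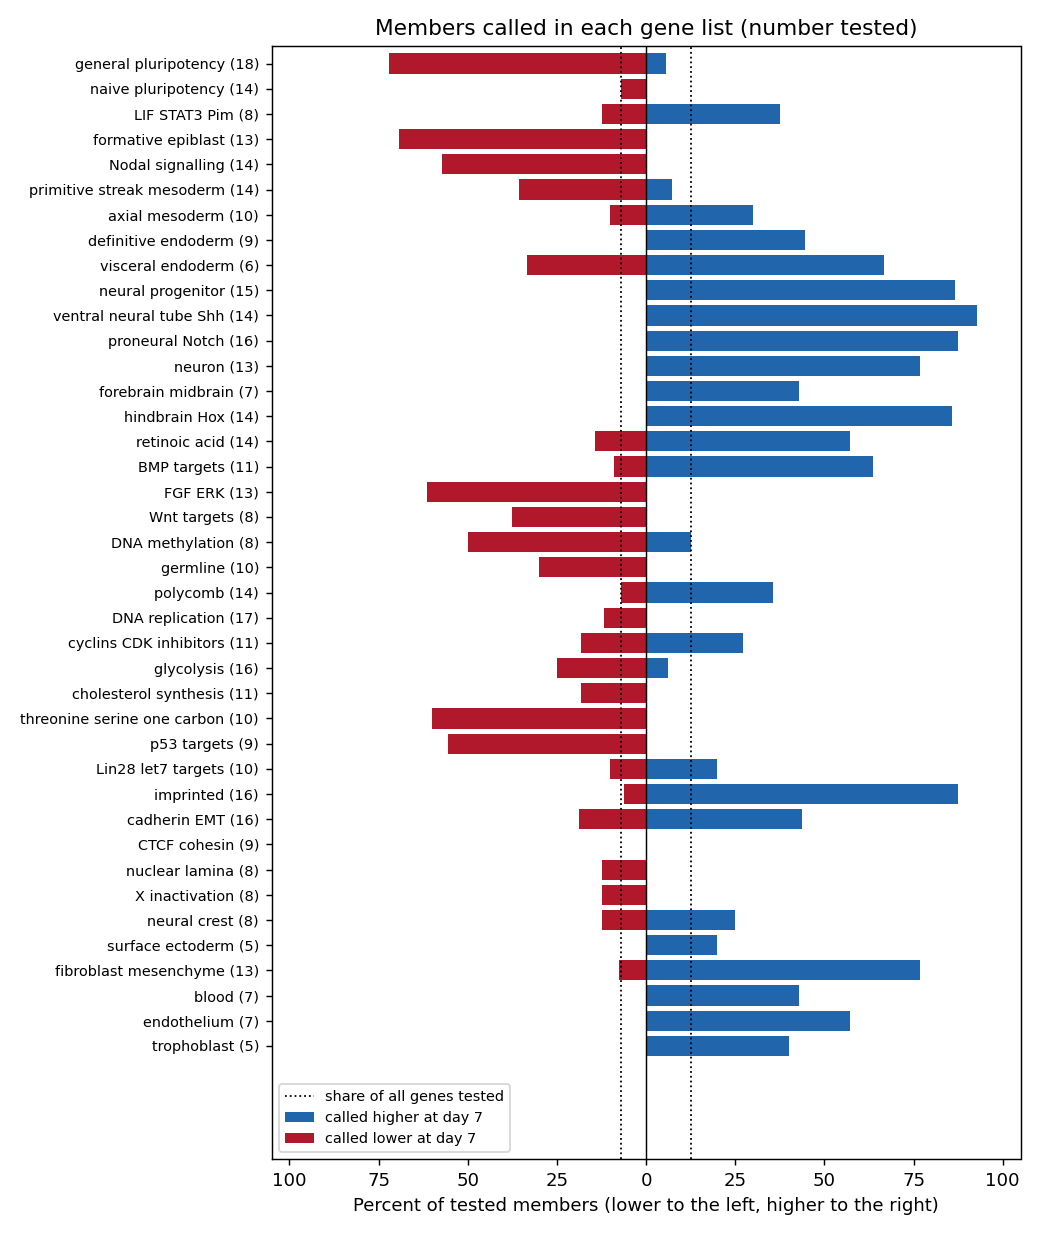
Percent of the tested members of each of 40 gene lists (34 of pathways and states, 6 of other cell types) that were called higher (blue, to the right) or lower (red, to the left) at day 7, with the number tested in brackets. Dotted lines give the shares over all genes tested, 12.7% higher and 6.91% lower; general pluripotency reaches 13 of 18 to the left and ventral neural tube 13 of 14 to the right.

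Of 11 cyclins and inhibitors of their kinases 3 rose and 2 fell. Ccnd2, a D-type cyclin, was at 5.16, 12.6 and 10.1 FPKM at day 4 and 70.9, 92.2, 49.2, 99.1 and 69.3 FPKM at day 7 (log2 2.94, SE 0.32, adjusted p = 3.13e-09). Cdkn1c, an inhibitor of cyclin-dependent kinases that is also imprinted, was at 10.5, 16.1 and 13.6 FPKM at day 4 and 91.3, 113, 132, 119 and 112 FPKM at day 7 (log2 3.00, SE 0.43, adjusted p = 4.79e-07). Both were apart between days. Ccne1, cyclin E1, fell from 98.0 ± 16.1 to 30.0 ± 2.15 FPKM (log2 -1.67), and Ccnd1 was not called (log2 0.34). Of 17 replication genes 2 fell and none rose (median -0.74). These were Rif1, a regulator of replication timing, at 60.5, 52.1 and 50.1 FPKM at day 4 and 21.6, 22.4, 22.7, 22.8 and 24.4 FPKM at day 7 (log2 -1.21, SE 0.15, adjusted p = 4.31e-08), and Orc1, a subunit of the origin recognition complex, which fell from 26.9 ± 2.97 to 10.7 ± 0.721 FPKM (log2 -1.25). Rif1 hardly varied within day 7. Of p53 and its targets 5 of 9 fell (median -1.02), among them Cdkn1a, a kinase inhibitor (52.3 ± 1.07 to 18.6 ± 4.60 FPKM, log2 -1.47), and Ccng1 (109.9 ± 15.7 to 42.1 ± 8.98, log2 -1.38). In both, replicate 3 was the highest day 7 library. Under quantile normalization 3 of the 9 fell; Trp53 itself (log2 -1.08) was called with the deposited scaling, but not under quantile normalization (-0.59) or in project A alone (-0.85).

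Metabolic genes fell in part, and several of these calls depended on scaling. For abundant members such as Ldha, the share to set beside is the 16.8% called lower among genes of at least 100 FPKM. Of 10 genes of threonine, serine and folate metabolism 6 fell and none rose, and 3 fell under quantile normalization. Tdh, threonine dehydrogenase of mouse stem cells, was at 38.6, 32.5 and 29.6 FPKM at day 4 and 12.7, 10.0, 11.8, 5.41 and 8.47 FPKM at day 7 (log2 -1.74, SE 0.20, adjusted p = 1.18e-08). Gldc, of glycine cleavage, fell from 44.2 ± 3.78 to 17.5 ± 1.48 FPKM (log2 -1.29). Of 16 glycolysis genes 4 fell and 1 rose. Ldha, lactate dehydrogenase, was at 1725, 1533 and 1622 FPKM at day 4 and 394, 788, 409, 566 and 481 FPKM at day 7 (log2 -1.67, SE 0.25, adjusted p = 1.17e-06), with replicate 2 the highest of day 7, and Gapdh was not called (log2 -0.82). Of 11 cholesterol synthesis genes 2 fell, and none fell under quantile normalization. Hmgcs1, another member, is listed at 0 in every library, which can be a failed estimate. Among genes of the Lin28 and let-7 pair, Hmga2, a chromatin protein and let-7 target, was at 12.4, 14.8 and 12.2 FPKM at day 4 and 147, 124, 105.4, 130.5 and 124 FPKM at day 7 (log2 3.17, SE 0.20, adjusted p = 2.3e-14). Lin28a fell by 1.07, a call lost under quantile normalization (log2 -0.56), in project A alone (-0.79) and without day 7 replicate 4 (-0.98), and Lin28b was not called (log2 -0.05).

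Chromatin regulators split. Of 14 Polycomb genes 5 rose and 1 fell. Cbx7, the Cbx subunit of stem cells, was at 33.4, 39.3 and 33.7 FPKM at day 4 and 6.34, 5.47, 4.76, 3.81 and 6.09 FPKM at day 7 (log2 -2.55, SE 0.18, adjusted p = 4.95e-13). Bmi1, a ring finger subunit of the same complex, was at 2.65, 2.82 and 2.67 FPKM at day 4 and 22.6, 18.5, 21.4, 23.5 and 22.3 FPKM at day 7 (log2 2.61, SE 0.15, adjusted p = 2.19e-15). Cbx2, a Cbx subunit of differentiated cells, rose from 13.1 ± 1.93 to 33.3 ± 1.81 FPKM (log2 1.29). These groups were apart. The enzyme Ezh2 was not called (log2 0.42). None of 9 genes of CTCF and cohesin was called by limma, while 6 had an unadjusted p under 0.05, with differences between -0.83 and 0.30, and Ctcf, which anchors chromatin loops, was at 47.7, 47.9 and 49.7 FPKM at day 4 and 41.2, 40.9, 40.3, 42.3 and 41.3 FPKM at day 7 (log2 -0.23, 0.03 under quantile normalization). Of 8 nuclear lamina genes 1 fell, Banf1 (log2 -1.03), whose call was lost without day 4 replicate 1 (-0.95), without the 2 libraries of doubtful stage (-0.96), in project B alone (-0.92) and under quantile normalization (-0.47).

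Female cells silence 1 of their X chromosomes as they leave pluripotency. Xist, which coats the X to be silenced, was at 35.3, 38.0 and 32.3 FPKM at day 4 and 71.3, 133, 97.6, 90.3 and 87.0 FPKM at day 7, with no overlap. In the fit of all 34 libraries it was not called (log2 1.39, SE 1.05, adjusted p = 0.257), and it was called in the fit of days 4 and 7 only (adjusted p = 0.000151). Tsix, its antisense partner, was at 1.16 and 0.721 FPKM (log2 -0.32); whether strand was used in counting is not given, so the pair cannot be separated with certainty. The median FPKM of the 552 X-linked genes divided by that of the autosomal genes was 0.926, 0.801 and 0.813 at day 4 and 0.687, 0.628, 0.713, 0.645 and 0.634 at day 7. All day 7 libraries were below those of day 4, and day 4 replicate 1 was the highest. The difference of the means was -0.185 (exact two-sided permutation p = 0.0357, the smallest that 3 and 5 libraries allow), and -0.167 in project B alone, where no p under 0.333 is possible. Of X-linked genes 75 were lower (13.6%) and 45 higher (8.15%), against 6.65% and 12.9% of autosomal genes.

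The libraries of days 5 and 6 (n = 3 each), whose spread enters the fit but whose means are not compared, show when the called genes changed. Of the 1009 genes that were lower at day 7, 37.6% had passed the midpoint between their day 4 and day 7 means by day 5 and 88.6% by day 6. Of the 1858 higher genes 32.2% had passed it by day 5 and 69.5% by day 6, and 29.1% had passed it on neither day, against 10.7% of lower genes. Within the general pluripotency list 7 of the 14 called genes were past it at day 5 and 11 at day 6, within the ventral neural tube list 4 of 13 and 12 of 13, and within BMP targets 7 of 8 on both days. Pou5f1 was at 261, 444 and 262 FPKM at day 5 and at 71.2, 31.1 and 86.1 FPKM at day 6, and Igfbp5 at 23.4 and 175 FPKM on average. The shares are descriptions with no test. With a pseudocount of 0.1 FPKM the order at day 5 was reversed, at 38.3% of higher and 34.1% of lower genes.

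**Figure D5:**
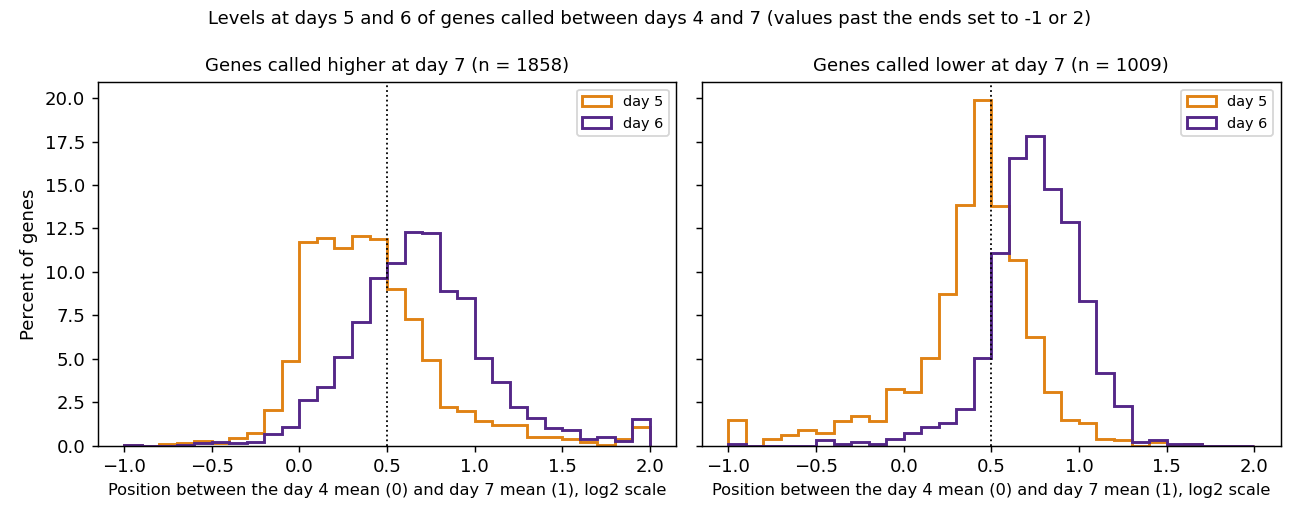
Position of each called gene at day 5 (orange) and day 6 (purple) between its day 4 mean (0) and its day 7 mean (1) on the log2(FPKM + 1) scale, as percent of genes, for the 1858 genes higher (left) and the 1009 lower at day 7 (right). The dotted line is the midpoint, past which 69.5% of higher and 88.6% of lower genes lie at day 6.

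Where the dates in the titles tie libraries of both days to 1 culture course, there were 3 such pairs. Within them Pou5f1 differed by -4.49, -5.91 and -4.83, Sox2 by 1.21, 1.20 and 1.83, Shh by 5.81, 5.74 and 6.54 and Nefm by 3.15, 2.93 and 2.82 on the log2 scale. The second pair had the largest fall of Pou5f1. All 3 had the same direction for each of the 4 genes, which any pairing would give, because their libraries did not overlap between days.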

How the data were processed

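RNA was measured by stranded mRNA sequencing of total RNA, per the labels' protocols. The submitters' processing notes name cutadapt 1.4.1, HISAT2 2.0.4, Cufflinks 2.2.1, Cuffdiff and build mm9. The authors deposited 1 table of FPKM values for all 34 libraries; fragment counts and whether counting used strand are not given in the sources used here, so depth and counting error are unknown.

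From these values log2(FPKM + 1) was computed, a pseudocount that understates the change of low genes, and limma 3.58.1 in R 4.3.3 was fitted over all libraries (trend, no covariate; 14595 genes that reached 1 FPKM in 3 or more libraries). P-values were adjusted over all genes tested (Benjamini-Hochberg), and the fit was tested on simulated data. Groups come from the column names and titles.

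The members, the 40 lists and the tests were chosen with earlier results of these data known. Named genes were the 12 largest rises and 12 largest falls among called genes that did not overlap between days and reached 10 FPKM, up to 6 members per list with the smallest adjusted p, uncalled list members, and a fixed set; those outside are said to be chosen after their values were seen. Some genes that the rule names are not reported here. Of the tested genes, 50 were listed at 0 in at least 1 library while another of the same day held at least 10 FPKM, 5 of them called. Alternatives were the pseudocount, the filter, the scaling, the libraries fitted, the project, the minimum difference, blocks and leaving out each library.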

Additional observations from a re-analysis of the deposited data

Results flagged for a closer look

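Among the 5 day 7 libraries, 1 value stood apart from the other 4 for 14 of 157 groups of values checked (gap over range above 0.71). Chance does this in about 1 of 20 groups if the values are normally distributed. FPKM near 0 need not be, and the groups share the same 5 libraries, so the 2 shares cannot be compared strictly. Replicate 1 was apart for Nkx2-9 (54.2 FPKM, low), Etv5 (25.8, high), Kdr (8.93, high) and Noto (1.83, high). Replicate 3 was apart for T (112 FPKM, high), Cdkn1a (26.7, high), Ccng1 (57.6, high), Banf1 (174, low) and Sycp3 (0, low). Replicate 2 was apart for Vrtn (1.54 FPKM, high), replicate 4 for Hey1 (30.4, low) and Dnmt3l (0.468, low), and replicate 5 for Fabp7 (34.5, low) and Mael (0.616, high).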

How the results depend on the processing

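The pseudocount and the minimum difference moved the counts most. With a pseudocount of 0.1 FPKM 4402 genes were called (2866 higher, 1536 lower), with 5 FPKM 1196 (679 and 517), and without a minimum difference 8862 (4732 and 4130). With 5 FPKM, 19 of the 156 genes named in the text lost their call, among them Pax6 (0.78), Dll4 (0.83), Dcx (0.91), Lifr (0.71), Sox17 (0.36), Rbp4 (0.92), Amn (-0.33), Tet1 (-0.86), Dnmt3a (-0.93), Foxj1 (-0.82), Sp5 (-0.59) and Msx1 (-0.35), and the germline, forebrain and endothelial genes given with their values above. Leaving out 1 library gave 2653 to 3024 calls, 1766 to 1925 higher and 887 to 1099 lower. The X to autosome difference was -0.167 in project B (p = 0.333, exact permutation) and -0.208 to -0.145 with 1 library left out (exact p 0.0571 to 0.0952, the smallest those designs allow). Shares past the midpoint became, with a pseudocount of 0.1, 38.3% (day 5, higher), 34.1% (day 5, lower) and 75.9% (day 6, higher), and in project B 35.5% (day 5, higher), 63.5% (day 6, higher) and 79.8% (day 6, lower). With 1 library left out they were 33.3% to 41.6% (day 5, lower) and 85.6% to 89.6% (day 6, lower).

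Signs that reversed belonged to genes that were not called, and the cause was not tested. T went to -0.19 in project B, to -0.0283 without the 2 libraries of doubtful stage, and ranged from -0.0401 to 0.95 with 1 library left out. Dnmt1 went to -0.0510 without those 2 and ranged from -0.0445 to 0.16. Quantile normalization turned Ctcf (0.0269), Lin28b (0.0140), Bambi (-0.28) and Meg3 (0.32), and project A turned the shared entry of Meg3 (0.0716), Chrd (0.41) and Noto (0.50). Noto was also at 0.00267 with a pseudocount of 5, 0.0194 with project as a covariate and -0.22 to 0.11 without single libraries.

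Libraries sharing a replicate number or a culture course did not deviate together in every pair (r = 0.13, 0.02 and 0.06 by number; 0.13, -0.09 and -0.06 by course). A block by number called 2896 genes and a block by course 2830. Noto was at 0.0409 and 0.0875 there, and both of these fits called Xist. With no block, Xist was also called in the fit of the compared days only. It was likewise called with no block in the fit of days 0 to 7 only, which used the libraries of the block by number. Whether the block by course itself affected its call was not tested. Leaving out the 2 libraries of doubtful stage (2649 calls) or the day 3 library of highest FPKM sum (2867) was chosen after seeing the data. Without fragment counts, low values carry an error that cannot be stated.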
